A study of Mus musculus with 10 samples.

Results

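The 39 genes described here encode chromatin and transcription regulators that are known from autism and intellectual disability, and they were taken as a fixed list of symbols. All 39 were found among the 30935 genes of the count table, and all 39 passed the filter on low counts, so none is missing from the comparison. They were measured in 10 RNA sequencing libraries of mouse cerebral cortex at postnatal day 8. In 5 libraries (wild type, replicates 2, 4, 5, 6 and 7) the mice were Rbfox1 +/+, and in 5 (knockout, replicates 1, 3, 5, 6 and 8) both alleles of Rbfox1 lacked the noncoding element HAR.505, so neither group had other alleles or agents named in the labels. The submitters describe the 5 samples per genotype as independent biological samples, and name no strain, sex, litter or batch. Whether the element was deleted in a library cannot be read from counts per gene, which do not cover it, so the genotype labels are taken as given.

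Genes in chromatin are made accessible by remodelling enzymes and marked by enzymes that add or remove methyl and acetyl groups on histone tails. The CHD proteins and the BAF complex move nucleosomes with energy from ATP. The products of Kmt2a, Kmt2c, Kmt2d and Setd1a methylate histone H3 at lysine 4, a mark of promoters and enhancers. Some other SET domain proteins mark other lysines, and readers and corepressors bind these marks. Mutation of a single copy of many of these genes disturbs brain development.

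Counts are given as CPM, the usual scaling of counts to the normalised library total, and levels of different genes are compared as CPM per kilobase of exon. The libraries held 16479594 to 22391943 counts, and the lowest count of any member in any library was 255. All 10 markers of cortical excitatory neurons were detected in every library. They ran from Emx1, the lowest, at 21.1 to 32.4 CPM to Slc17a7, the vesicular glutamate transporter gene and the highest, at 805 to 1075 CPM. The libraries also differed in markers of neighbouring tissue. All 14 choroid plexus and ependymal markers together summed to 265 to 329 CPM in the wild type and 24.5 to 243 CPM in knockout. In the wild type most of this sum was the transthyretin gene Ttr, at 213 to 278 CPM. In knockout Ttr was at 0 to 200 CPM, with 0 counts in replicate 3. Of the 14 markers, 13 had a log2 fold change below 0 and 1 above. All 14 striatal markers together summed to 279 to 441 CPM in the wild type and 225.5 to 297 CPM in knockout, where the homeobox gene Six3 held 2.04 to 6.31 CPM in the wild type and 0.279 to 1.51 CPM in knockout. The edgeR test called 2 of 14 lower in each of these lists and 1 of 10 interneuron markers (Slc32a1) lower, against 0.194% of all tested genes. The part of these cells in the results below was not tested. In bulk tissue, fewer cells of a type and less RNA per cell cannot be told apart.

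The members were expressed above most genes. Their median level was 100 CPM against 22.5 CPM over all 15488 tested genes, and 37 of 39 were above that median. Their exons are long, with a median of 8.51 kb against 3.35 kb over the tested genes, so the difference per length was smaller: 11.3 CPM per kb against 7.12, with 31 of 39 members above the median. Chd3 led by a wide margin, and Zmynd11 and Tcf4 followed. The lowest levels per length were those of Chd7, Asxl3 and Adnp. In this order, the ranges over the 10 libraries were apart between Chd3 and Zmynd11, between Tcf4 and Smarca4 and between Asxl3 and Chd7, and each other pair of neighbours overlapped.

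**Figure D1:**
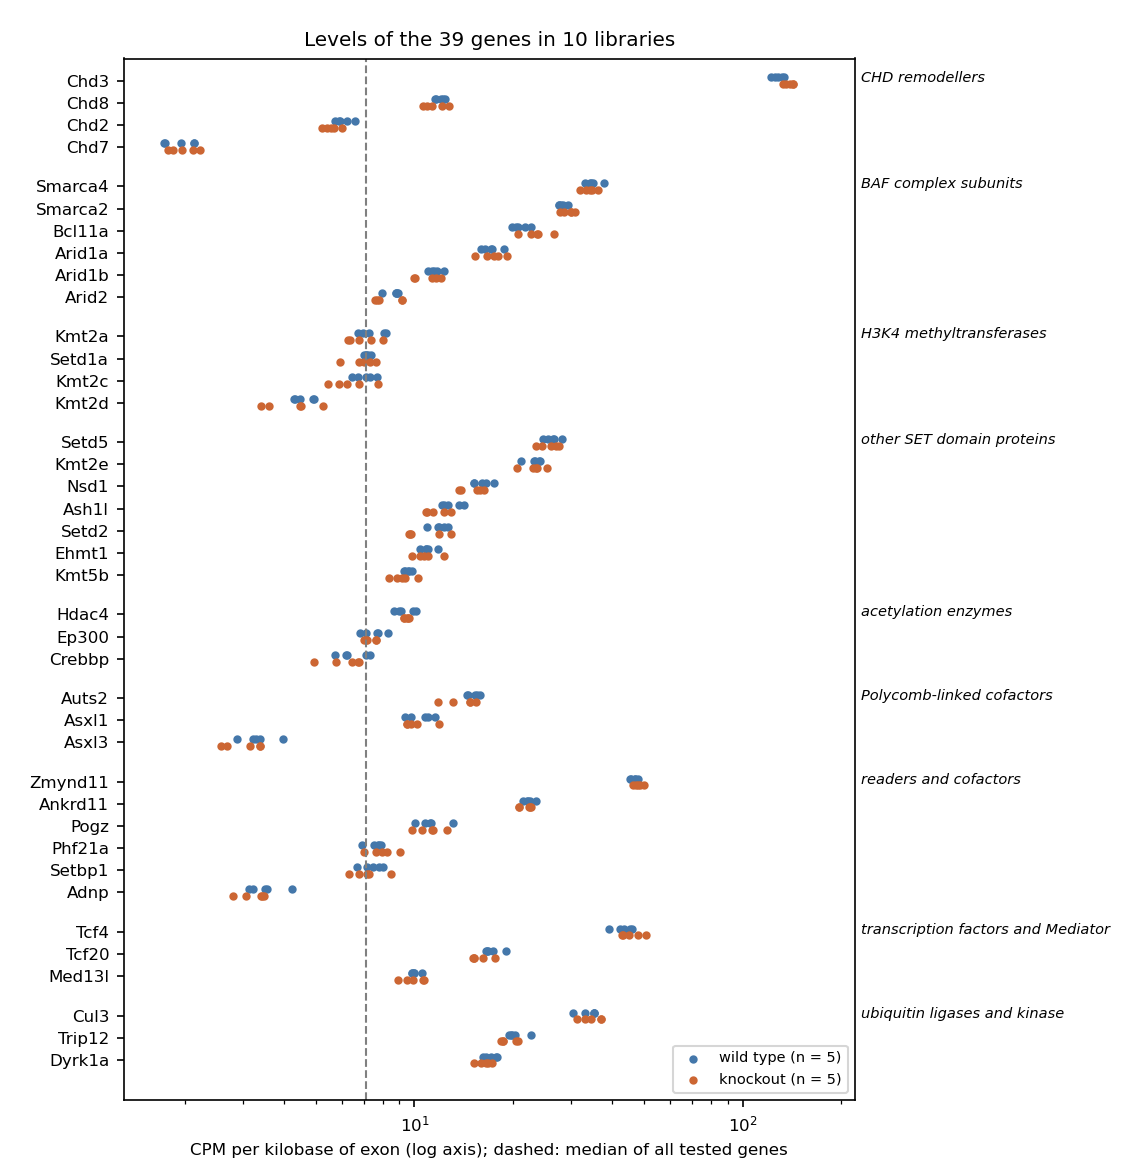
Level of each of the 39 genes in CPM per kilobase of exon on a log axis, 1 point per library, wild type in blue and knockout in orange, grouped by role. The levels run from about 2 for Chd7 to above 120 for Chd3, and the dashed line is the median of all tested genes, 7.12.

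Promoter sequences of 300 bases (250 before and 50 after the annotated start, RefSeq, build GRCm38.p6) were found for 28 of the 39 members, in 36 windows. They were rich in CG dinucleotides, with a median of 31.0 per window against 7.0 over all 32851 windows of the table, which also holds noncoding and predicted genes. The letters GGGCGG, the core of the box bound by Sp family factors, were searched on both strands and were present in 30 of 36 member windows (83.3%) and in 35.7% of all windows. CCAAT, searched likewise, was present in 7 member windows against 37.4% of all, and TATAAA in 1 window, of Phf21a, against 13.6%. A match is a description of these letters and not evidence of binding. The 4 windows below are shown because Bcl11a and Tcf20 had 2 of the 4 smallest p-values of the genotype comparison, and Setd2 and Kmt2d were among the members that varied most between libraries. Capitals mark GGGCGG or its reverse complement CCGCCC. The window of Bcl11a is chr11:24080445-24080744 (plus strand), that of Setd2 chr9:110532347-110532646 (plus strand), that of Kmt2d chr15:98871156-98871455 (minus strand) and that of Tcf20 chr15:82912085-82912384 (minus strand), each written 5′ to 3′ on the gene's strand.
Bcl11a: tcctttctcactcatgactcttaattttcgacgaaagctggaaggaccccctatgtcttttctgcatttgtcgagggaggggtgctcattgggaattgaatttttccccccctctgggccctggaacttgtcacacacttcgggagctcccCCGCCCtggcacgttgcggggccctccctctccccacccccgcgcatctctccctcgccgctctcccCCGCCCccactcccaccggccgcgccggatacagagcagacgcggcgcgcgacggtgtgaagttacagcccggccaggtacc
Setd2: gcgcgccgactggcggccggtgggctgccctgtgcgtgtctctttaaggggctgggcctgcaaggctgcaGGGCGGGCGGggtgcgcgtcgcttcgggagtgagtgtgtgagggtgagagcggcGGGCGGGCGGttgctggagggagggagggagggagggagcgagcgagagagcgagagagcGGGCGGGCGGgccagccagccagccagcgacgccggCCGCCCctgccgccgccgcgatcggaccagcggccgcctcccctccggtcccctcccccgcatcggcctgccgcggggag
Kmt2d: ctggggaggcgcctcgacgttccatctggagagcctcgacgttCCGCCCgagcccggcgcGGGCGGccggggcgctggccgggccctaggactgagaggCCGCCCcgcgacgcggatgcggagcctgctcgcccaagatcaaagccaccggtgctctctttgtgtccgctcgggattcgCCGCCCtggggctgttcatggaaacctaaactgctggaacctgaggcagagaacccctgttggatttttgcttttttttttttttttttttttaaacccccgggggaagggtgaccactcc
Tcf20: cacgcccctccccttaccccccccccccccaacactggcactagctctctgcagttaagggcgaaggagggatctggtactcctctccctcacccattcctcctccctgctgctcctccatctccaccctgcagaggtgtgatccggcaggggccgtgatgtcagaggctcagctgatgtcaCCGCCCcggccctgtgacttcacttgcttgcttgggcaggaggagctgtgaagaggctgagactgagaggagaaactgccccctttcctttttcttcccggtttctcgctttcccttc
The window of Setd2 held 7 matches, some overlapping, and 38 CG dinucleotides, that of Kmt2d 4 matches and 27, that of Bcl11a 2 and 23, and that of Tcf20 1 and 8.

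No member differed between genotypes past the threshold. 0 of 39 members passed the edgeR quasi-likelihood test at an adjusted p under 0.05, against 0.381% of all tested genes, and the smallest adjusted p was 0.339. At an unadjusted p under 0.05 there were 4 members, Chd3 and Bcl11a with higher and Ash1l and Tcf20 with lower means in knockout, that is 10.3% against 8.71% of all tested genes (4.19% higher and 4.52% lower). In 0 members did the 5 knockout libraries lie apart from the 5 wild-type libraries, against 1.83% of all tested genes (0.93% higher and 0.897% lower). DESeq2 and limma-voom also called 0 members, with 4 and 5 at an unadjusted p under 0.05. Over all 15488 tested genes they had 1396 and 1417 at that level.

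The 95% interval of each member, from the fit with genotype alone, gives a range for its average change. Each interval is taken singly and without adjustment. The log2 fold changes of the members ran from -0.16 (Ash1l) to 0.16 (Bcl11a), with standard errors between 0.041 and 0.105. For 31 of 39 members the whole 95% interval lay within a fold of 1.2 in either direction. The 8 others were Bcl11a, Kmt2c, Kmt2d, Ash1l, Setd2, Crebbp, Asxl3 and Adnp, and the widest bounds over all members were folds of 0.790 and 1.21.

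**Figure D2:**
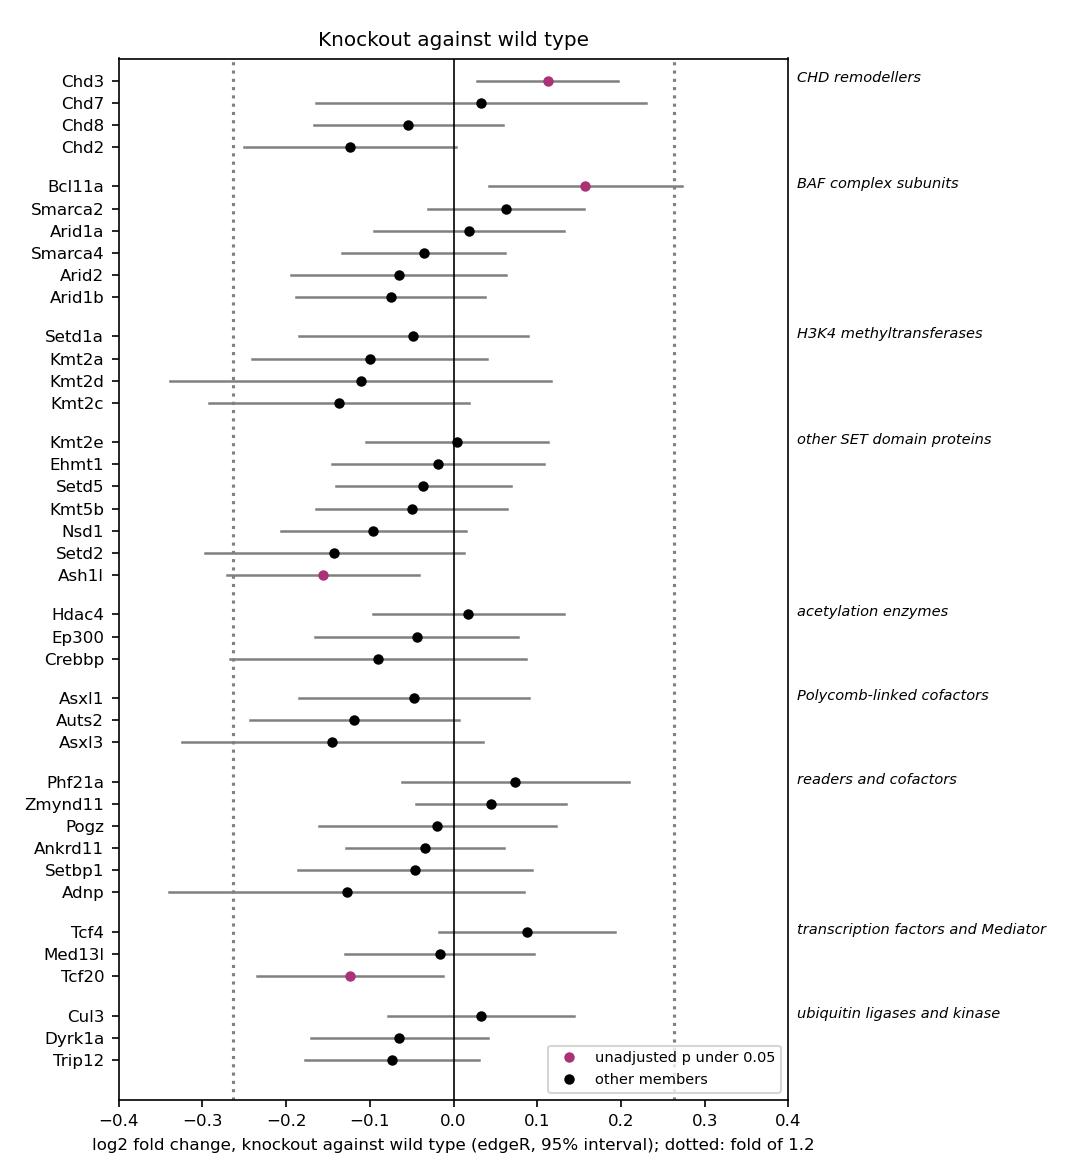
Log2 fold change of each gene, knockout against wild type, with its 95% interval from edgeR (5 libraries per genotype), grouped by role. Intervals of 4 members, marked in purple, exclude 0 before adjustment, and the dotted lines mark a fold of 1.2.

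Among the CHD remodellers, Chd3, an ATPase of the NuRD deacetylase complex, was at 960, 970, 886, 928 and 909 CPM in wild type in replicate order. In knockout it was at 1033, 1036, 1015, 981 and 964 CPM. The lowest knockout library, replicate 8, lay within the wild-type range, and the 4 others lay above it. The means were 930 ± 34.99 and 1006 ± 31.9 CPM (SD, n = 5 each), with a log2 fold change of 0.11 (SE 0.041, edgeR adjusted p = 0.351), and an exact two-sided permutation test of log2 CPM over the 252 splits gave p = 0.0159, where the smallest possible is 0.00794. Chd2, a remodeller linked to childhood epilepsy, was at 51.9, 53.8, 53.6, 59.99 and 56.6 CPM in the wild type and 54.7, 49.1, 51.5, 47.6 and 50.5 CPM in knockout. Knockout replicate 1 lay within the wild-type range and the 4 others below it (log2 fold change -0.12, SE 0.062, edgeR adjusted p = 0.589). The exact permutation test of Chd2 gave p = 0.0476, and these were the 2 members of 39 under 0.05 in that test, before any adjustment. That test was run on the members only, so no share over all tested genes stands beside this count. Chd8, a leading autism gene, and Chd7, the gene of CHARGE syndrome, had log2 fold changes of -0.05 (SE 0.055) and 0.03 (SE 0.096).

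The BAF complex was represented by its ATPase subunits Smarca2 and Smarca4, the DNA-binding subunits Arid1a, Arid1b and Arid2, and Bcl11a, a zinc finger transcription factor of cortical neurons that also associates with the complex. Bcl11a was at 157, 150, 155, 165 and 172 CPM in the wild type and at 157, 181, 172, 179 and 203 CPM in knockout. Knockout replicate 8 was highest and replicate 1 within the wild-type range. The means were 160 ± 8.71 and 178 ± 16.5 CPM (SD, n = 5 each), with a log2 fold change of 0.16 (SE 0.056, edgeR adjusted p = 0.339). Knockout replicate 8 was also the highest library for the mean log2 CPM of the excitatory neuron markers, at 7.04 against 6.62 to 6.78 in the 9 others. Without that library the log2 fold change of Bcl11a was 0.11 (edgeR adjusted p = 0.403), and the part of these markers in it was not tested. Smarca2 was at 207, 204, 201, 215 and 201 CPM in the wild type and 218, 226, 219, 203 and 209 CPM in knockout, with overlapping groups (log2 fold change 0.06, SE 0.046). Smarca4, Arid1a, Arid1b and Arid2 had log2 fold changes between -0.08 and 0.02.

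The 4 methyltransferases of histone H3 lysine 4, Kmt2a, Kmt2c, Kmt2d and Setd1a, all had lower means in knockout. Their log2 fold changes ran from -0.14 to -0.05, and 0 of 4 had an unadjusted p under 0.05. Over all tested genes 50.9% were below 0. Of 491 other genes with 10 kb of exon or more, a length class that holds Kmt2a, Kmt2c and Kmt2d, 72.3% were below 0. The summed level of the 4 genes was 349 to 393 CPM in the wild type and 305 to 398 CPM in knockout, so the knockout range enclosed the wild-type range. Kmt2d, the gene of Kabuki syndrome, was at 97.0, 89.0, 85.3, 97.8 and 85.5 CPM in wild type. In knockout it was at 89.6, 71.4, 104, 67.5 and 88.6 CPM, with replicates 3 and 6 below and replicate 5 above every wild-type library (log2 fold change -0.11, SE 0.105). Kmt2c was likewise highest in knockout replicate 5 and below every wild-type library in replicates 3 and 6, and also in replicate 8, at 102, 81.7, 116, 88.3 and 93.5 CPM against 96.8 to 115 CPM in wild type.

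Of 7 other SET domain proteins, 6 had lower means in knockout, where 50.9% of all tested genes had a log2 fold change below 0. Ash1l, which methylates lysine 36 of histone H3, was at 143, 147, 141, 164 and 160 CPM in wild type. In knockout it was at 127, 133, 151, 126 and 143 CPM, with 3 libraries below every wild-type library and 2 within their range. The means were 151 ± 10.3 and 136 ± 10.7 CPM (SD, n = 5 each), with a log2 fold change of -0.16 (SE 0.056, edgeR adjusted p = 0.340, exact permutation p = 0.0635). Setd2, the main enzyme for trimethylation of the same lysine, was at 103, 91.1, 98.4, 106 and 99.1 CPM in wild type. In knockout it was at 81.5, 80.4, 108, 81.0 and 99.4 CPM, so that replicates 1, 3 and 6 were low and replicate 5 was the highest of all 10 (log2 fold change -0.14, SE 0.074, edgeR adjusted p = 0.625). Nsd1, the gene of Sotos syndrome, had a log2 fold change of -0.10 (SE 0.054). Kmt5b, which methylates histone H4, Ehmt1, which methylates lysine 9 of histone H3, Setd5 and Kmt2e lay between -0.05 and 0.00.

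The acetylation enzymes were the paralogous acetyltransferases Crebbp and Ep300 and the deacetylase Hdac4. Their log2 fold changes were -0.09 (SE 0.084), -0.04 (SE 0.059) and 0.02 (SE 0.056). Hdac4 was the steadiest of the 3 in knockout, at 75.2 to 77.9 CPM within a wild-type range of 70.1 to 82.1 CPM. The Polycomb-linked cofactors Asxl1, Asxl3 and Auts2 all had lower means, where 50.9% of all tested genes were below 0. Their log2 fold changes were -0.05, -0.14 and -0.12, and 0 of 3 had an unadjusted p under 0.05. Auts2, which joins a Polycomb complex of neurons, was at 100.3, 99.4, 107, 109 and 105 CPM in the wild type and 101, 89.8, 101, 106 and 81.3 CPM in knockout. Its lowest library was knockout replicate 8, and without it the log2 fold change was -0.06.

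Of 6 readers and cofactors, 4 had lower and 2 higher means in knockout, where 50.9% of all tested genes had a log2 fold change below 0. Zmynd11, which reads methylated lysine 36 on the histone variant H3.3, was at 211 to 223 CPM in the wild type and 216 to 233 CPM in knockout, and its standard deviation between libraries of a genotype, 0.038 on the log2 scale, was the smallest of the 39. Phf21a, a reader of unmethylated lysine 4 in the LSD1 corepressor complex, was at 54.4, 52.7, 48.5, 55.5 and 54.9 CPM in the wild type and 63.5, 53.6, 57.9, 49.3 and 56.1 CPM in knockout. Its highest library was knockout replicate 1 and the groups overlapped (log2 fold change 0.07, SE 0.066), and without that library the log2 fold change was 0.03. Ankrd11, Pogz and Setbp1 lay between -0.05 and -0.02. Adnp, which forms a repressive complex with heterochromatin protein, was at 18.04 CPM in the wild type and 16.5 CPM in knockout, the lowest of the 39 in CPM, and its interval was among the widest (log2 fold change -0.13, SE 0.104).

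Tcf4, the basic helix-loop-helix factor gene of Pitt-Hopkins syndrome, was at 582, 564, 523, 609 and 614 CPM in the wild type and 604, 575, 643, 574 and 678 CPM in knockout. Knockout replicates 5 and 8 were above every wild-type library and the 3 others within their range (log2 fold change 0.09, SE 0.051, edgeR adjusted p = 0.684). Tcf20, a nuclear coregulator gene, was at 131, 125, 125, 143 and 127 CPM in the wild type and 122, 115, 133, 114 and 114 CPM in knockout. Knockout libraries other than replicate 5 were below every wild-type library, and the means were 130 ± 7.59 and 119 ± 8.21 CPM (SD, n = 5 each; log2 fold change -0.12, SE 0.054, edgeR adjusted p = 0.485). Med13l, a subunit of the Mediator kinase module, had a log2 fold change of -0.02 (SE 0.055). The ubiquitin ligase genes Cul3 and Trip12 and the kinase gene Dyrk1a, which act on chromatin regulators and many other proteins, had log2 fold changes of 0.03, -0.07 and -0.07.

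**Figure D3:**
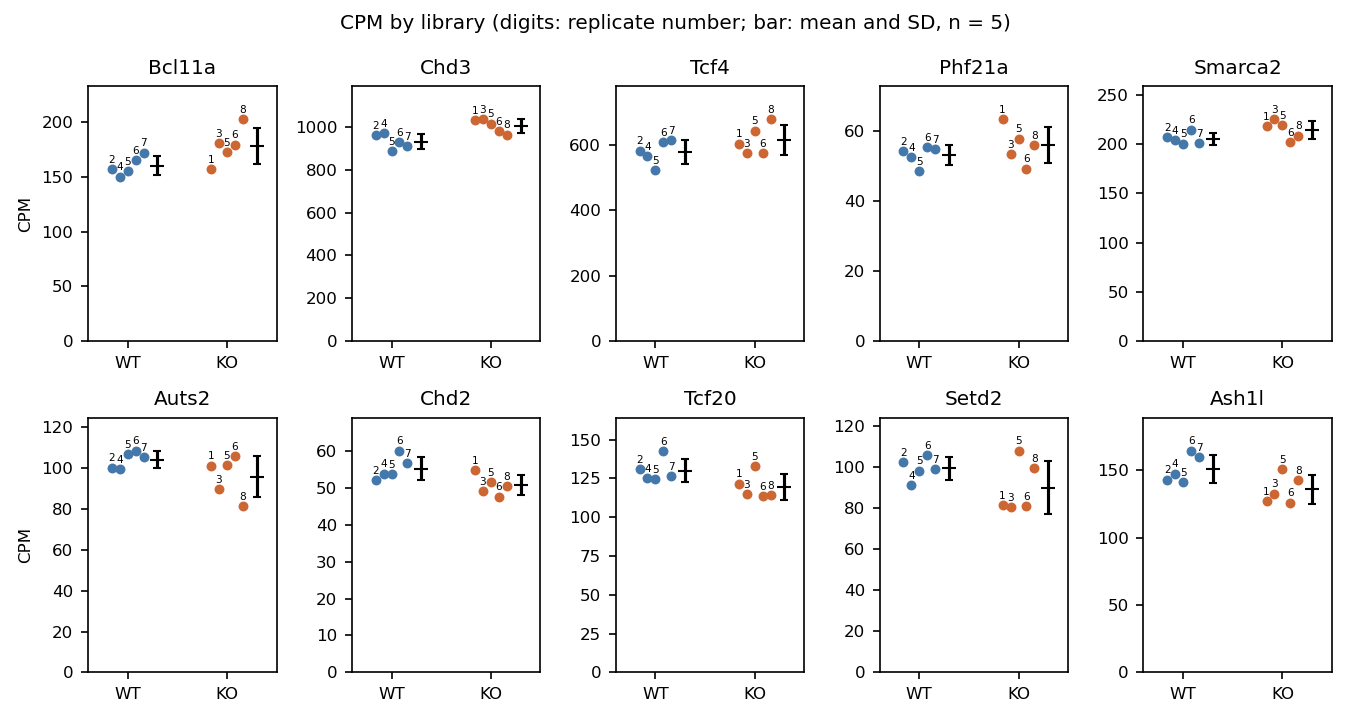
CPM of the 10 members with the 5 smallest p-values in each direction, 1 point per library with its replicate number, and mean with SD (n = 5) as a black bar, on axes from 0. The genotypes overlap in all 10 panels, and knockout replicate 8 is the highest point for Bcl11a and Tcf4 and the lowest for Auts2.

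Of the 39 members, 28 had a log2 fold change below 0 and 11 above, where 49.1% of all tested genes were above, and the median was -0.05 against -0.0021 over all tested genes. With 1 library left out, between 25 (without knockout replicate 3) and 31 (without wild-type replicate 2) were below 0, and the median was -0.02 without knockout replicate 6 and -0.03 without knockout replicate 3. Without both of these, 16 members were below 0 and the median was 0.01, but they were chosen after the data were seen as the libraries where the members were lowest, so that leaving them out had to raise the median. Without knockout replicates 3, 5 and 6, which had the lowest Ttr counts, 22 were below 0 and 17 above. With the mean of the choroid and ependymal markers as a covariate, 19 were below 0 and 20 above. With the striatal markers 24 were below 0, with log2 CPM of Xist as a sex covariate 27, and with the replicate block 29. In the block fit only the libraries numbered 5 and 6, which occur in both genotypes, inform the genotype term. The choroid mean in log2 CPM was 2.115 to 2.26 in the wild type and 0.0164 to 1.86 in knockout. The striatal mean was 3.37 to 4.23 in the wild type and 2.71 to 3.40 in knockout. Both means follow genotype closely, so those covariate fits cannot tell these cells from genotype. Whether the members as a group differed between genotypes was not tested.

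Each gene was also compared with its own mean over the 10 libraries. In knockout replicate 6 only 5 of 39 members were above their mean, and in knockout replicate 3 and wild-type replicate 4 only 10 were. In wild-type replicate 6 there were 34 and in knockout replicate 5 there were 31. Over all tested genes the share above the mean was between 50.9% and 53.4% in every library. Over 3143 other genes within the members' range of exon length and of CPM it moved the same way as the members in these libraries, at 71.6% in wild-type replicate 6, 71.7% in knockout replicate 5, 45.9% in knockout replicate 3, 39.7% in wild-type replicate 4 and 33.8% in knockout replicate 6. The median deviation of the members was -0.13 in knockout replicate 6 and -0.11 in replicate 3 on the log2 scale, and 0.10 in wild-type replicate 6 and 0.07 in knockout replicate 5. Over libraries, the medians ran from -0.02 to 0.10 in wild type and from -0.13 to 0.07 in knockout, so the genotypes overlapped. Marker lists differed between these libraries too. The mean log2 CPM of 10 microglia markers was 4.64 in knockout replicate 3 and 4.60 in replicate 6, against 4.26 to 4.47 in the 8 other libraries. In knockout replicate 6 the astrocyte markers were at their highest, 7.60 against 7.34 to 7.495 elsewhere, and the excitatory neuron markers at their lowest, 6.62. The choroid marker Ttr was at 0 CPM in knockout replicate 3 and 5.07 CPM in replicate 6, where the members were low, and at 0.490 CPM in replicate 5 and 200 CPM in replicate 1, where 31 and 28 members were above their mean. The part of these cells in the members' levels was not tested.

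**Figure D4:**
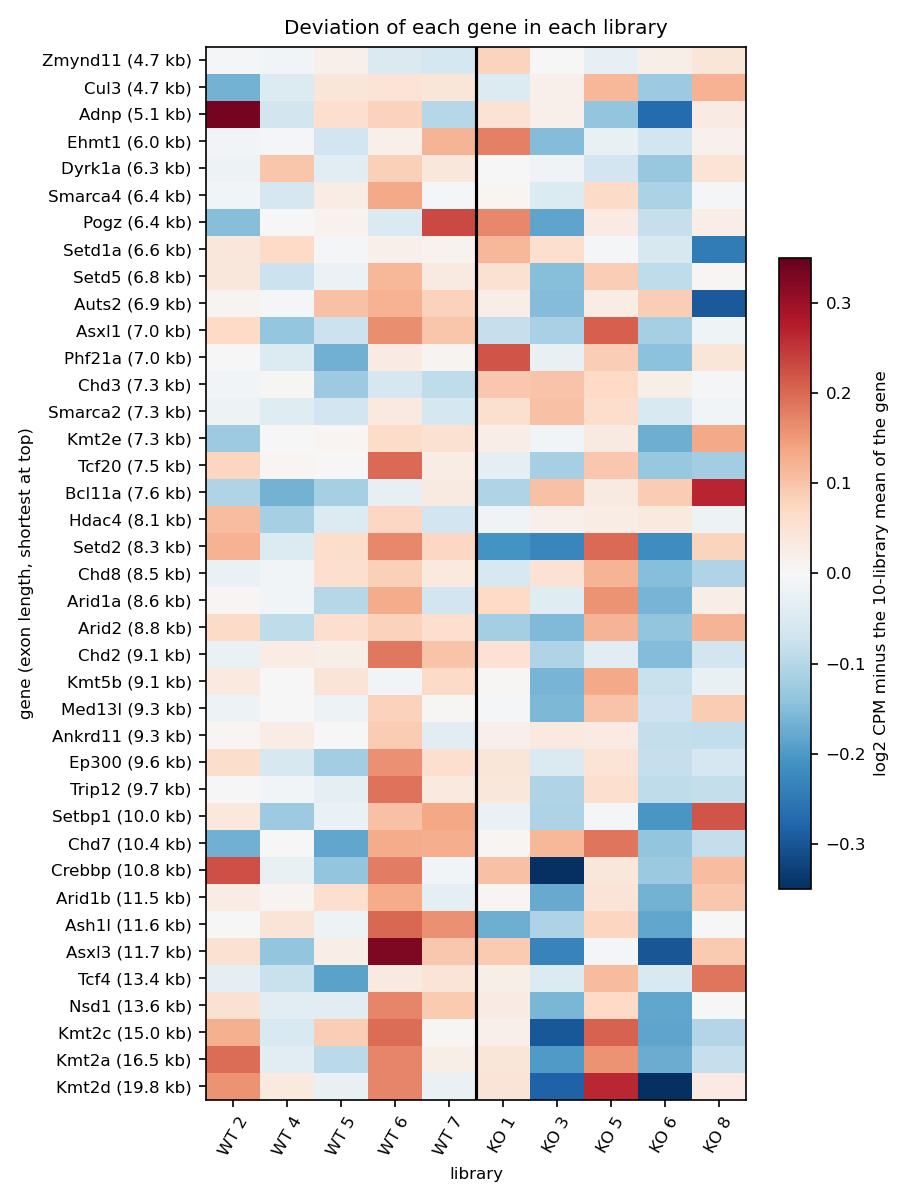
Deviation of log2 CPM from each gene's mean over the 10 libraries, genes in rows by exon length and libraries in columns, with the colour scale ending at 0.35 in either direction. Knockout replicates 3 and 6 are mostly blue and wild-type replicate 6 and knockout replicate 5 mostly red, most strongly in the long genes at the bottom.

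Pairs of members varied together within genotypes. Over the 741 pairs, the median correlation of their deviations from the genotype mean across the 10 libraries was 0.394, and 82.1% of pairs were positive. Over all pairs of tested genes the median was -0.001, with 49.9% positive. Over the 3143 genes of the same range it was 0.114, with 60.6% positive. These values share libraries and scaling and are given as a description.

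The covariation followed exon length, in the members and in all other genes. In wild-type replicate 6 the median deviation of other genes was -0.08 below 1 kb of exon and 0.19 at 15 kb or more. In knockout replicate 6 it was 0.10 and -0.18, in knockout replicate 3 0.01 and -0.17, and in knockout replicate 5 -0.13 and 0.11. The 10 members of 10 kb or more, among them Kmt2a, Kmt2c, Kmt2d, Crebbp and Asxl3, had medians of 0.17 in wild-type replicate 6, -0.18 in knockout replicate 6 and -0.19 in knockout replicate 3. The 17 members under 8 kb had 0.05, -0.09 and -0.01 in the same libraries. Kmt2d, the longest member at 19.8 kb, also had the largest spread between libraries of a genotype, with an SD of 0.194 on the log2 scale against a median of 0.0999 over the members.

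The genotype comparison showed the same order. The median log2 fold change was -0.10 for the 10 members of 10 kb or more, of which 8 were below 0, and -0.05 for the 491 other tested genes of that length, of which 72.3% were below 0. It was -0.05 for the 12 members of 8 to 10 kb and -0.02 for 596 other genes. It was -0.02 for the 17 members under 8 kb, with 10 below 0, and 0.00093 for other genes.

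**Figure D5:**
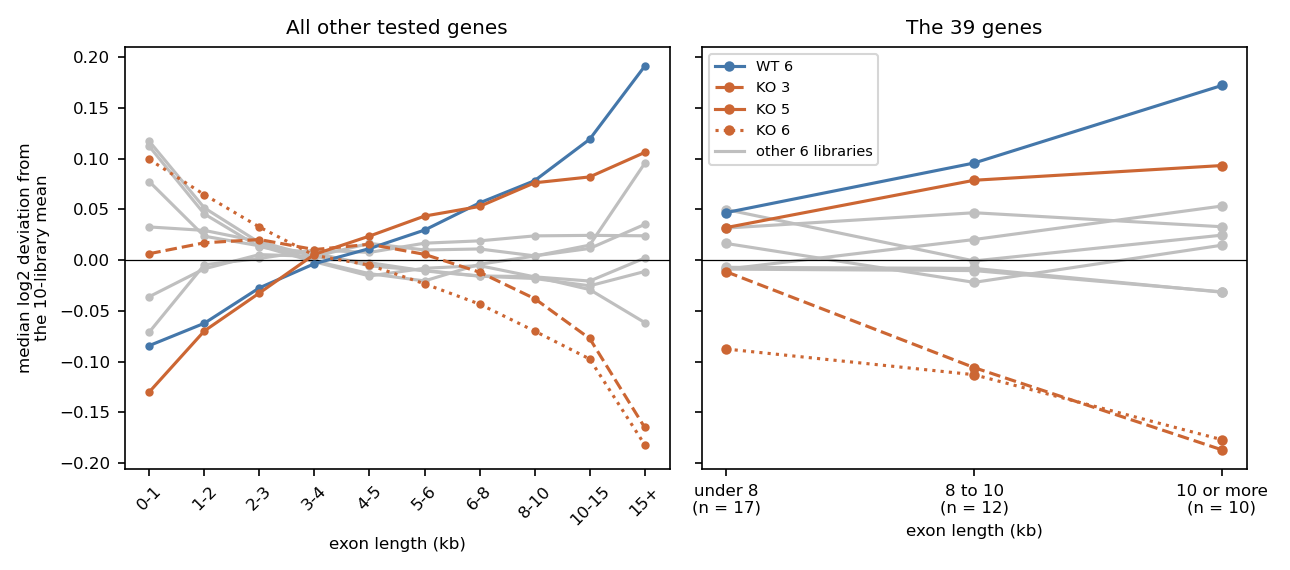
Median log2 deviation from the 10-library mean against exon length, for all other tested genes in 10 length classes (left) and for the 39 members in 3 classes (right), 1 line per library. Wild-type replicate 6 and knockout replicate 5 rise with length and knockout replicates 3 and 6 descend, in both panels.

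With the length trend of each library removed as an offset, an alternative chosen after the data were seen, the median correlation of member pairs was 0.075, with 57.0% positive, and that of the other genes in the same range was 0.001. The members above their mean were then 8 in knockout replicate 6, 14 in knockout replicate 3, 24 in wild-type replicate 6 and 19 in knockout replicate 5. The median log2 fold change was -0.03, with 27 members below 0, and 0 of 39 passed the edgeR test while 6 had an unadjusted p under 0.05. Over all 15488 tested genes 104 passed that edgeR test and 1479 had an unadjusted p under 0.05. For Kmt2d the log2 fold change was -0.05 (SE 0.058), for Tcf4 0.14 (SE 0.043, adjusted p = 0.185), for Chd3 0.12 (SE 0.039, adjusted p = 0.179), for Bcl11a 0.18 (SE 0.056, adjusted p = 0.209) and for Ash1l -0.12 (SE 0.046, adjusted p = 0.344), the p-values being those of edgeR with that offset. Genes of 28 ribosomal proteins had a mean log2 CPM of 7.44 in both wild-type replicate 6 and knockout replicate 5, the lowest of the 10 libraries, and of 7.59 in both knockout replicates 3 and 6, with 7.47 to 7.63 in the 6 others. For 8 nuclear-retained noncoding RNAs the mean was 7.55 and 7.40 in the first pair and 7.25 and 7.33 in the second, with 7.32 to 7.73 in the others. The part of RNA quality or composition in the length trend was not tested.

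Ratios of paralogs per kilobase were taken within each library. Arid1a exceeded Arid1b by a ratio of 1.48 ± 0.0638 in wild type and 1.58 ± 0.0904 in knockout (SD, n = 5 each). Smarca4 exceeded Smarca2 by 1.24 ± 0.0430 and 1.16 ± 0.0506, with ranges of 1.19 to 1.28 and 1.08 to 1.204 that overlapped. Kmt2c exceeded Kmt2d by 1.54 and 1.52, Asxl1 exceeded Asxl3 by 3.15 and 3.38, and Chd8 exceeded Chd7 by 6.24 and 5.83, each in 10 of 10 libraries. Crebbp was below Ep300 in all 10 libraries, at ratios of 0.865 and 0.837. The exon lengths come from an annotation other than the authors', and reads that paralogs share could be counted for either, so the ratios are approximate. In each of the 6 pairs the wild-type and knockout ranges of the ratio overlapped.

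Partner genes of the same complexes were tested likewise. Of 137 tested subunits and enzymes outside the list (NuRD and other CHD genes, BAF, COMPASS, histone methylation, acetylation, Polycomb, Mediator kinase and heterochromatin genes), 0 passed the edgeR test, 2 with higher and 9 with lower means had an unadjusted p under 0.05 (8.03% against 8.71% of all tested genes), and the median log2 fold change was -0.02. The smallest p was that of Smarce1, a core BAF subunit gene, which was at 72.8, 78.4, 76.8, 72.2 and 75.5 CPM in the wild type and 65.9, 67.3, 65.1, 59.3 and 70.8 CPM in knockout. Every knockout library was below every wild-type library, by a small margin (log2 fold change -0.19, SE 0.057, edgeR adjusted p = 0.184). The only other partner whose groups lay apart was Brd2, a reader of acetylated histones, at 431 to 446 CPM in the wild type and 447 to 477 CPM in knockout (log2 fold change 0.06, adjusted p = 0.769), so 2 of 137 did against 1.83% of all tested genes. Hdac7, a class IIa deacetylase gene like Hdac4, was at 24.2 and 20.5 CPM (log2 fold change -0.24, SE 0.085, edgeR adjusted p = 0.330). In the other direction, Hdac9, of the same class, was at 66.9 and 75.0 CPM (0.16, SE 0.067) and Dpf3, a neuronal BAF subunit gene, at 6.91 and 8.47 CPM (0.29, SE 0.138). Of the 137 partners 84 were below 0, that is 61.3% against 50.9% of all tested genes. Below 0 were 13 of 15 COMPASS genes (median -0.04), 5 of 6 Mediator kinase genes (median -0.07) and 14 of 22 BAF genes. So were 14 of 22 genes of other histone methylation, 7 of 12 of heterochromatin and 13 of 24 of acetylation. Of the CHD and NuRD genes 8 of 16 were below 0, and of the Polycomb genes 10 of 20, with a median of 0.00087.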

How the data were processed

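Total RNA of mouse cortex was sequenced in 10 libraries, 5 per genotype. The authors deposited 1 table of raw counts keyed by Entrez identifier. The submitters' processing notes name HISAT2, featureCounts and the build mm39; for versions, annotation, strand setting and multi-mapping reads the sources used here say nothing. Symbols came from a RefSeq table of GRCm38.p6 (30648 identifiers matched), promoter windows from RefSeq, and exon lengths, the union of exons of the GENCODE M21 basic set, covered 97.4% of tested genes. These are another build than the authors', so no coordinates were transferred.

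The analysis used edgeR 4.0.16 (R 4.3.3): filterByExpr (15488 genes), TMM scaling, and a quasi-likelihood F test with robust dispersions and 1 term, genotype. Its p-values were adjusted with the Benjamini-Hochberg method over all tested genes, with a threshold of 0.05, and SEs derive from the F statistic. Log2 CPM used a prior count of 2. Replicate pairs differed by more than sampling noise (chi-square per degree of freedom 4.10 to 13.9), so they were not repeat sequencing of 1 library. That check cannot tell separate mice from separate preparations of 1 mouse. Each library was counted as 1 replicate because the submitters describe independent biological samples. The members, lists and alternatives were chosen with earlier results of these data known; 326 of 327 list entries matched. The naming rule took members with an unadjusted p under 0.05, the 5 smallest p-values in each direction and members whose groups lie apart. It also took 6 paralog pairs, the 2 partners with the smallest p in each direction, Ttr, Six3 and the excitatory neuron markers. Brd2, Slc32a1, Clic6, Tmem72, Penk and Vip were named after their values were seen. Alternatives were other normalizations, filters, DESeq2 1.42.0, limma-voom (limma 3.58.1), left-out libraries, a replicate block and covariates. The analysis was tested on simulated data, and the outcome of that test is not reported here. Counting error alone sets a lower limit on the spread.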

Additional observations from a re-analysis of the deposited data

Results flagged for a closer look

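A value was singled out where 1 library stood off from the other 4 of its genotype, by a gap above 0.71 of the group's range. Among 78 groups (39 members in 2 genotypes) 4 did, and chance gives about 1 in 20. Wild-type replicate 6 was highest for Trip12, a ubiquitin ligase gene, at 218 CPM against 187 to 196 CPM in the other wild-type libraries. It was also highest for Med13l, the Mediator kinase module gene, at 98.2 CPM against 91.6 to 93.1 CPM. Knockout replicate 5 was highest for Asxl1, a partner gene of the BAP1 deubiquitinase, at 83.1 CPM against 66.4 to 71.2 CPM. These 2 libraries had the largest numbers of members above their mean, 34 and 31 of 39. Wild-type replicate 4 was lowest for Arid2, a subunit gene of the PBAF form of the BAF complex, at 69.6 CPM against 77.1 to 78.3 CPM.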

How the results depend on the processing

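The count of 0 called members and of 0 called partner genes was the same under all 26 alternatives, including an adjusted p under 0.1, while between 1 and 10 members had an unadjusted p under 0.05. The 10 were found without knockout replicate 5, where 1478 of 15663 tested genes had an unadjusted edgeR p under 0.05. The 10 members with the 5 smallest p-values in each direction kept their direction in each of the 25 alternative fits. They were picked by p-value from the same libraries that these fits reuse, so a kept direction is no independent support. The lowest adjusted p of these 10 members was 0.111, from edgeR for Chd3 without knockout replicate 8. The median of the members ran from -0.058 to 0.012 and was above 0 without knockout replicates 3 and 6 (0.012) and with the choroid covariate (0.012). The count over all tested genes, 59, was 171 with no filter, 124 with DESeq2, 108 at an adjusted p under 0.1, 27 with the sex covariate (log2 CPM of Xist), 0 with the choroid and 0 with the striatal covariate (745 and 614 genes at an unadjusted edgeR p under 0.05), 12 without knockout replicates 3, 5 and 6, 18 without knockout replicates 3 and 6, 104 with the length trend removed, and 15 (without wild-type replicate 2) to 182 (without knockout replicate 8) with 1 library left out. The cause of these shifts was not tested. Numbers 5 and 6 occur in both genotypes, and same-numbered libraries did not deviate together (correlations -0.03 and -0.06). With a replicate block 0 members and 27 genes were called, but only the libraries numbered 5 and 6 inform the genotype term of that fit. The other libraries drop out of that term, so the block is no check on all 10. Adnp and Chd7 were the members with the fewest counts (lowest 255 and 308), and their SEs were 0.104 and 0.096. The largest SE, 0.105, was that of Kmt2d, whose lowest count was 1212. The part of depth in these SEs was not tested.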
